A study of Mus musculus with 6 samples.

Results

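A set of 42 genes that mark T cells and natural killer (NK) cells was followed through RNA sequencing of sorted mouse myeloid cells. The genes were named by symbol, to ask which lymphocyte lineage (CD8 T, gamma-delta T, NK or NKT cell) the lymphocyte reads of wild-type intravascular macrophages resemble. Of the 42, 41 were found among the 49016 gene symbols of the count table, and Bcl11b was not analysed here. There were 6 libraries, 1 from each of 6 groups: BRAF V600E mutant and wild-type intravascular macrophages (IVM, macrophages that lie inside vessels), mutant and wild-type monocytes, and mutant and wild-type microglia, the macrophages of the brain. BRAF V600E is an activating substitution in the BRAF kinase. The labels give no cell type or promoter that restricts the mutation, no age or sex, no sorting gate, no number of animals or cells behind a library, and no word on whether cell types were taken from the same mice. Because a genotype has 1 library in each cell type, differences between genotypes have no replicate check and carry no p-value; intervals on folds are 95% exact intervals that cover counting error only.

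T cells recognise antigen through a receptor made of an alpha and a beta chain or of a gamma and a delta chain, which is held at the surface by the CD3 proteins and signals through the kinases Lck and Zap70. CD8 T cells and NK cells kill target cells with granzymes and perforin; NK cells lack the rearranged receptor and use germline-encoded receptors such as Ncr1 and the killer lectin-like receptors. NKT cells carry an alpha chain of nearly fixed sequence and need the transcription factor Zbtb16, and many gamma-delta T cells of mouse tissues make interleukin 17. All of these cells occur in blood.

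Total counts were 65519506 in mutant IVM and 29000457 in wild-type IVM, and between 25787476 and 62110213 in the other libraries. Markers of the labelled cell types were read in their libraries. All 10 macrophage markers reached 10 CPM (counts scaled by TMM to a common library size) in both IVM libraries. They summed to 27084 CPM in mutant IVM and 7511 CPM in wild-type IVM, the lowest sum of the 6 libraries. The same markers summed to 34468 and 38828 CPM in mutant and wild-type monocytes, and to 50880 and 25834 CPM in mutant and wild-type microglia. Microglia markers summed to 56255 and 25895 CPM in mutant and wild-type microglia, and classical monocyte markers to 11260 and 6859 CPM in mutant and wild-type monocytes. Wild-type IVM had the fewest genes with a count, 15121, against 19063 to 23214 in the other libraries.

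The lymphocyte genes were concentrated in wild-type IVM. The 41 genes together held 75.7 CPM in mutant IVM and 10572 CPM in wild-type IVM, 437 and 169 CPM in mutant and wild-type monocytes, and 41.3 and 35.6 CPM in mutant and wild-type microglia. As shares of all counts these were 0.00987% in mutant IVM and 1.34% in wild-type IVM, and between 0.00347% and 0.0266% elsewhere. In wild-type IVM all 41 genes had a count and 40 reached 10 CPM; in mutant IVM 35 had a count and 4 reached 10 CPM. In such bulk libraries, fewer cells of a type and less RNA per cell cannot be told apart.

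**Figure D1:**
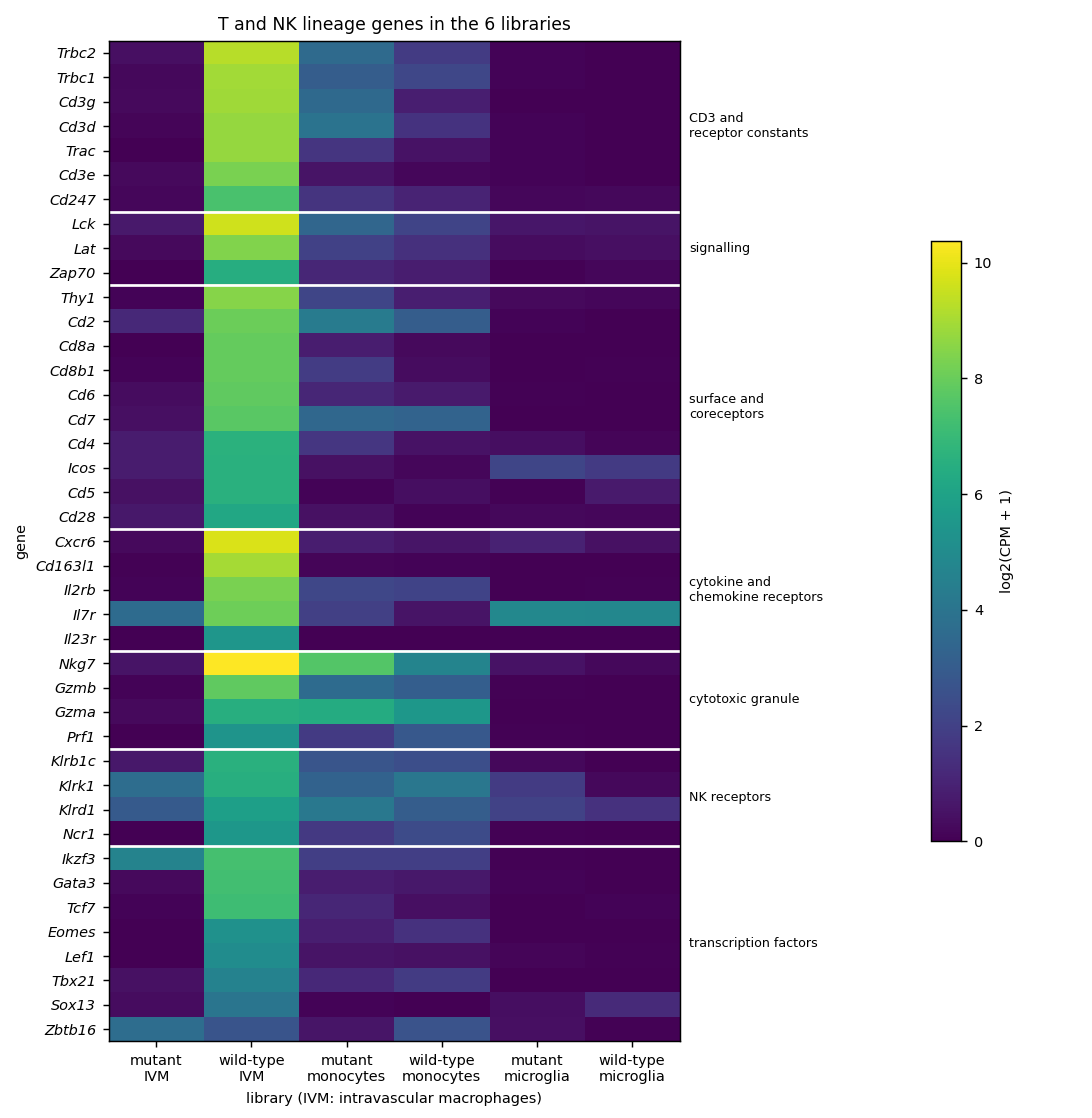
Level of the 41 T and NK lineage genes (vertical axis, grouped by role) in the 6 libraries (horizontal axis), coloured by log2(CPM + 1). Wild-type IVM has the highest level of all genes but Zbtb16. In the other columns 4 genes reach 10 CPM in mutant IVM, 8 and 3 in mutant and wild-type monocytes, and 1 in each microglia library.

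By a size rule of at least 4-fold with 10 CPM in the higher library, 40 of the 41 genes were lower and 0 were higher in mutant than in wild-type IVM. Of all 9565 genes that reached 10 CPM in either library, 13.1% were lower and 16.5% higher by the same rule. As 40 of the 41 reached 10 CPM in wild-type IVM and 4 in mutant IVM, a count over the 41 leans downward by selection. Log2 ratios, mutant over wild type, had a median of -9.86 over the 41 genes and -0.13 over all genes tested. The single gene outside the rule was Zbtb16, with 12.2 CPM in mutant, against 5.46 CPM in wild-type IVM, 2.24-fold higher (1.92 to 2.62). When wild-type IVM was set against all 5 other libraries, 38 of the 41 genes were at least 4-fold above each of them, as were 6.65% of 7908 genes. The 3 exceptions were Zbtb16, Klrd1 and Gzma. On deposited TPM, 35 of 38 genes at the minimum were lower in mutant IVM, against 6.28% lower and 31.4% higher of 8553 genes.

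The CD3 proteins and the receptor constant regions, which only T cells assemble into a receptor, were abundant in wild-type IVM. Cd3d (chr9:44981786-44987339, plus strand, mm10), a signalling chain of the complex, had 0.105 CPM in mutant, against 424 CPM in wild-type IVM, 14.5 and 1.86 CPM in mutant and wild-type monocytes, and 0.0614 and 0.0219 CPM in mutant and wild-type microglia. Cd3e, its partner chain, had 0.199 and 312 CPM in mutant and wild-type IVM, 0.476 and 0.127 CPM in mutant and wild-type monocytes, and 0.0614 and 0 CPM in mutant and wild-type microglia. Cd3g had 0.187 and 481 CPM, and Cd247, the zeta chain, 0.129 and 167 CPM, in mutant and wild-type IVM. All 4 CD3 genes were thus high in 1 library, with folds lower in mutant IVM from 1296 (Cd247, 724 to 2598) to 4023 (Cd3d, 2119 to 8800). Trac, the alpha chain constant region (chr14:54220521-54224206, plus strand), had 0.0117 CPM in mutant IVM, which is 1 count, and 422 CPM in wild-type IVM. Its ratio of 36004.5 therefore has a wide interval, 6461 to 1422190. In monocytes Trac stood at 2.04 CPM in mutant cells and 0.424 CPM in wild-type cells.

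The beta chain has 2 constant regions, Trbc1 and Trbc2. Trbc1 had 0.176 and 493 CPM and Trbc2 0.351 and 615 CPM in mutant and wild-type IVM. Their annotated transcripts (GENCODE M21) share 483 of 502 aligned bases, or 96.2%, with an identical run of 259 bases, so how the counts divide between them is uncertain. The stretch from position 438 to 497 of the transcript holds 10 of their 19 differences, in capitals, and is shown to make clear how little separates the copies.
Trbc1: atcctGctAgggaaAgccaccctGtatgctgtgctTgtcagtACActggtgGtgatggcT
Trbc2: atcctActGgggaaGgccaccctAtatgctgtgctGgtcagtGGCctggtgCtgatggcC
On the per-length scale (TPM), Trbc2 and Trbc1 were among the highest members in wild-type IVM, at 1249 and 925 TPM, above Trac at 634 TPM and Cd3d at 328 TPM.

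The signalling proteins next to the receptor followed the same pattern. Lck, the kinase that starts receptor signalling, had 0.633 and 779 CPM in mutant and wild-type IVM, 9.63 and 3.43 CPM in mutant and wild-type monocytes, and 0.553 and 0.459 CPM in mutant and wild-type microglia. Zap70, the kinase that binds the phosphorylated CD3 chains, had 0 counts in mutant and 88.5 CPM in wild-type IVM, at least 2518-fold lower against a floor of 3 counts per library. Lat, the membrane scaffold of the pathway, had 0.211 and 339.8 CPM. Of 21 genes of T cell receptor signalling, including these 3, 16 were lower and 0 higher in mutant IVM, with a median log2 ratio of -6.97. Of all genes tested, 13.1% were lower and 16.5% higher. In mutant IVM 8 of the 21 reached 10 CPM, and in wild-type IVM all 21, so the count of lower genes leans downward by selection. Those past the rule included the adaptors Skap1 (0.141 and 238 CPM) and Themis (0.0351 and 59.6 CPM). Others that myeloid cells also use did not pass it, such as the adaptor Lcp2 (381 and 352 CPM in mutant and wild-type IVM) and the exchange factor Vav1 (364 and 185 CPM). Lck, Lat, Cd3e and Cd247 share exon bases with another annotated gene, as do Cd7, Klrb1c, Eomes, Lef1 and Gata3, and the use of strand in counting is not given in the sources used here, so small parts of these counts are uncertain.

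Both coreceptors were read, with CD8 above CD4. Cd8a (chr6:71373427-71379173, plus strand), a chain of the CD8 coreceptor, had 0 counts in mutant IVM and 242 CPM in wild-type IVM, at least 6885-fold lower. In monocytes it had 0.793 CPM for the mutant and 0.212 CPM for the wild type, and it had 0 counts in both microglia libraries. Cd8b1, the other chain, had 0.0586 and 241 CPM in mutant and wild-type IVM, and 2.57 and 0.254 CPM in mutant and wild-type monocytes. Cd4, the coreceptor of helper T cells that some myeloid cells also carry, had 0.750 and 98.4 CPM in mutant and wild-type IVM, 131-fold lower (102 to 171), and between 0.109 and 2.12 CPM elsewhere. Per length, Cd8b1 stood at 229 TPM, Cd8a at 93.5 TPM and Cd4 at 34.3 TPM in wild-type IVM, so that Cd8a was 2.73 times Cd4 (2.62 to 2.84). In mutant monocytes, on 30 and 80 counts, Cd8a was 0.416 times Cd4 per length (0.264 to 0.640).

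Of the other surface proteins, Thy1, a marker of T cells, NK cells and innate lymphoid cells, had 0.0703 and 359.6 CPM in mutant and wild-type IVM. The adhesion protein Cd2 had 1.30 and 260.2 CPM, and the receptor-linked proteins Cd6 and Cd5 had 0.269 and 226 CPM and 0.363 and 93.8 CPM. Cd7, found on T and NK cells and their precursors, had 0.328 and 207 CPM. The costimulatory receptors Cd28 and Icos had 0.598 and 72.9 CPM and 0.750 and 94.5 CPM. All 7 were lower in mutant IVM, by 122-fold (Cd28) to 5116-fold (Thy1). Outside IVM, Cd2 stood at 19.0 and 7.29 CPM in mutant and wild-type monocytes, Cd7 at 9.92 and 8.98 CPM, and Icos at 3.47 and 2.41 CPM in mutant and wild-type microglia.

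Receptors for cytokines and chemokines included some of the highest members. Cxcr6, the receptor for the chemokine Cxcl16 and a marker of tissue-resident and activated T, NKT and innate lymphoid cells (chr9:123806475-123811760, plus strand), had 0.211 CPM in mutant IVM and 892 CPM in wild-type IVM. It had 0.767 and 0.508 CPM in mutant and wild-type monocytes and 1.01 and 0.372 CPM in mutant and wild-type microglia, and so was more than 4-fold above each other library. Cd163l1, a scavenger receptor family gene that in mouse marks gamma-delta T cells (chr7:140218267-140231145, plus strand), had 0.0351 CPM, or 3 counts, in mutant IVM and 501 CPM in wild-type IVM. It had 0.106 and 0.0847 CPM in mutant and wild-type monocytes and 0 counts in microglia, which made its gap of 11.69 on the log2 scale between wild-type IVM and the next library the widest of the 41 genes. Il23r, the receptor chain that sustains interleukin 17 production, had 0 counts in mutant IVM and 42.5 CPM in wild-type IVM, at least 1209-fold lower, and 1 count among the other 4 libraries. Il2rb, a chain shared by the receptors of interleukins 2 and 15, had 0.0586 and 315 CPM in mutant and wild-type IVM. Il7r, the interleukin 7 receptor, differed less, at 11.4 and 268 CPM, 23.5-fold lower (22.0 to 25.1), and was the only member at 10 CPM in microglia.

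Cytotoxic granule genes were high in wild-type IVM and were also read in monocytes. Nkg7, a granule membrane protein of T and NK cells (chr7:43437073-43438249, plus strand), was the highest member, with 0.457 CPM in mutant, against 1328 CPM in wild-type IVM, 191 and 24.8 CPM in mutant and wild-type monocytes, and 0.430 and 0.175 CPM in mutant and wild-type microglia. Gzma, the tryptase granzyme, had 0.211 and 88.7 CPM in mutant and wild-type IVM and 81.8 and 44.6 CPM in mutant and wild-type monocytes. Its level in wild-type IVM was therefore within 0.12 on the log2 scale of that in mutant monocytes. Gzmb, the granzyme that activates caspases, had 0.0586 and 229 CPM in IVM and 11.5 and 7.50 CPM in monocytes, mutant and wild type in each case. Prf1, perforin, had 0 counts and 40.1 CPM in mutant and wild-type IVM. Of 14 cytotoxic granule genes, these included, 8 reached the minimum and 7 were lower and 0 higher in mutant IVM. Of all genes, 13.1% were lower and 16.5% higher. In mutant IVM 1 of the 14 reached 10 CPM, and in wild-type IVM 8, so the count of lower genes leans downward by selection. Among the lower ones were Ctsw (0.680 and 514 CPM), Fasl (0.117 and 176 CPM) and Gzmk (0.0469 and 19.5 CPM). Gzmc, Gzmd, Gzme, Gzmf and Gzmg, the granzymes of long-activated killer cells in mouse, had 0 counts in all 6 libraries.

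NK receptors were read at lower levels. Ncr1, the activating receptor NKp46 (chr7:4337724-4345164, plus strand), had 0 counts in mutant IVM and 44.0 CPM in wild-type IVM, at least 1252-fold lower, and 2.27 and 4.19 CPM in mutant and wild-type monocytes. Klrb1c, which encodes NK1.1 in some mouse strains, had 0.609 and 93.8 CPM in mutant and wild-type IVM and 5.66 and 4.57 CPM in mutant and wild-type monocytes. Klrk1, the activating receptor NKG2D, had 12.2 and 89.2 CPM in mutant and wild-type IVM and 8.68 and 16.5 CPM in mutant and wild-type monocytes. Klrd1, the CD94 chain, had 6.64 and 56.4 CPM in IVM and 16.8 and 7.37 CPM in monocytes, so that its gap between wild-type IVM and mutant monocytes, 1.75 on the log2 scale, missed the 4-fold mark. Klrk1 and Klrd1 differed least among NK receptors, at 7.33-fold (6.84 to 7.87) and 8.49-fold (7.73 to 9.33) lower in mutant IVM. On deposited TPM both missed the 4-fold mark, with log2 ratios of -1.64 for Klrk1 and -1.87 for Klrd1.

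The transcription factors of the set spanned several lineages. Tcf7, needed for T cell development and also read in innate lymphoid cells, had 0.0586 and 142 CPM in mutant and wild-type IVM, and Gata3, shared by T cells and innate lymphoid cells, 0.187 and 150.2 CPM. Lef1, the relative of Tcf7, had 0.0117 and 31.7 CPM. Eomes and Tbx21, which drive cytotoxic genes in NK and CD8 T cells, had 0 counts and 37.3 CPM, and 0.363 and 23.5 CPM. Sox13, a factor of mouse gamma-delta T cells, had 0.281 and 15.4 CPM. Ikzf3, a factor of lymphocytes, had 24.2 and 159 CPM, 6.59-fold lower (6.27 to 6.94), the smallest difference of the 40. Its log2 ratio was -1.50 on deposited TPM. Zbtb16, the factor of NKT cells, was the lowest member in wild-type IVM, at 1.45 TPM.

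**Figure D2:**
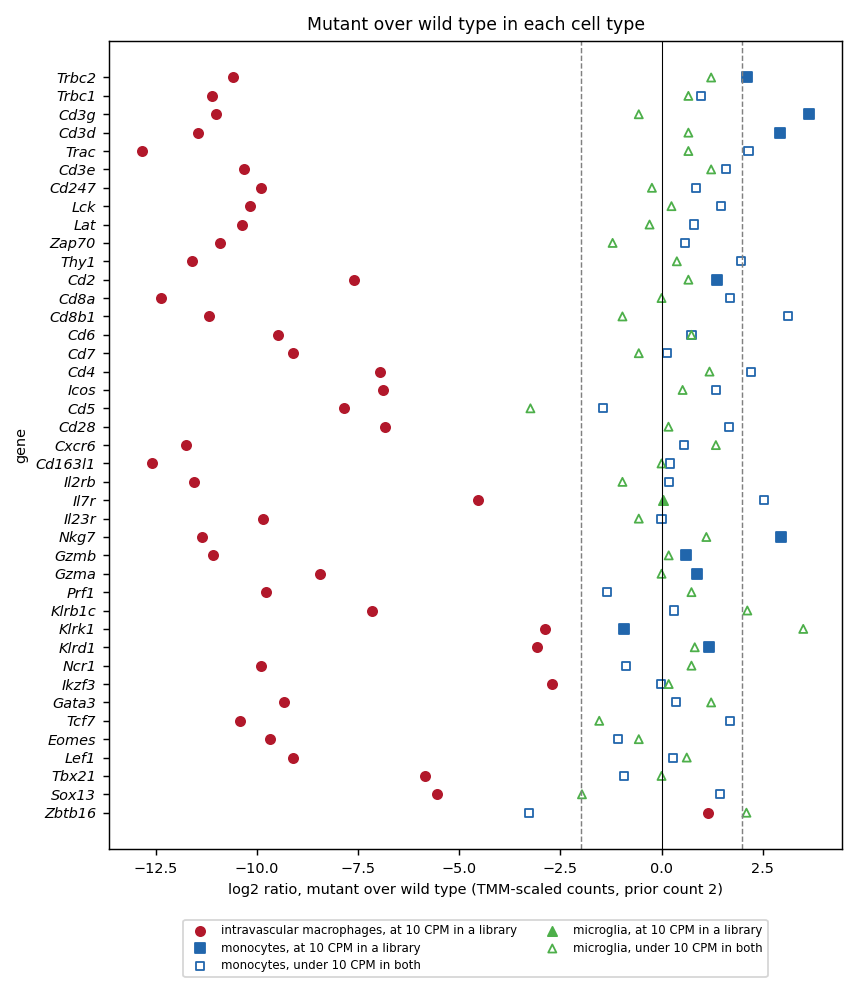
Log2 ratio of mutant to wild type (horizontal axis) for each of the 41 genes (vertical axis) in IVM, monocytes and microglia; filled symbols reach 10 CPM in a library and dashed lines mark 4-fold. The IVM points lie far to the left for 40 genes, whereas those of monocytes and microglia lie around and to the right of 0, apart from Zbtb16 in monocytes and Cd5 in microglia, which lie beyond the left dashed line under 10 CPM.

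The reads of wild-type IVM covered the constant regions of both kinds of T cell receptor. The 3 alpha-beta constant regions summed to 0.539 CPM in mutant, against 1529.7 CPM in wild-type IVM, and the 5 gamma-delta ones to 0.375 and 612 CPM. In the other 4 libraries the gamma-delta constant regions summed to at most 1.11 CPM. The delta constant region Trdc had 0.0351 and 196 CPM and the gamma constant region Tcrg-C1 0.129 and 252 CPM in mutant and wild-type IVM. Per length, Trac was 8.90 times Trdc in wild-type IVM (8.65 to 9.15), at 634 and 71.2 TPM. Tcrg-C1 and Tcrg-C2 share 94.5% of their aligned bases and Tcrg-C1 and Tcrg-C3 96.9%, so the split among gamma copies is uncertain.

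Each T cell clone picks variable segments when it rearranges its receptor genes. In wild-type IVM their counts lay unevenly on several segments of the alpha and beta loci. The alpha locus had 2883 counts over 41 of 128 segments, led by Trav12-2 with 23.4% (21.9 to 25.0), Trav3-3 with 15.5% and Trav19 with 11.0%. Of the 41 alpha segments, 15 had at least 10 counts. The beta locus had 8280 counts over 18 of 35 segments, led by Trbv3 with 24.4% (23.5 to 25.4), Trbv12-2 with 14.2% and Trbv13-2 with 11.8%. Expressed as an effective number of equally used segments (inverse Simpson index), these were 8.47 for alpha and 8.80 for beta. The gamma locus had 3159 counts over 7 of 7 segments, led by Trgv2 with 36.6%, Tcrg-V6 with 20.1% and Tcrg-V5 with 17.5%, an effective number of 4.20. All 2267 counts of the 6 segments with a Trdv symbol lay on Trdv4 (99.8% to 100%). Every segment with a Trav symbol was counted as alpha, so any use of such segments by delta chains was not covered. In mouse, Trdv4 is joined with Tcrg-V5 in T cells of the epidermis and with Tcrg-V6 in interleukin 17-producing T cells of several tissues.

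The other libraries held few variable segment counts. Mutant and wild-type IVM had 3 and 2883 alpha, 14 and 8280 beta, 0 and 3159 gamma and 0 and 2267 delta counts. Mutant and wild-type monocytes had 49 and 7 alpha, 54 and 14 beta and 0 and 0 gamma counts. Their delta counts, 103 in mutant and 13 in wild-type cells, lay mostly on Trdv2-2, with 75 and 13. That segment had 0 counts in wild-type IVM. Trdv4, which held all Trdv counts of wild-type IVM, had 27 counts in mutant and 0 in wild-type monocytes. Microglia had at most 8 counts at any of these loci in either genotype. Segments of the same family are similar in sequence, and how reads shared among them were counted is not given in the sources used here.

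**Figure D3:**
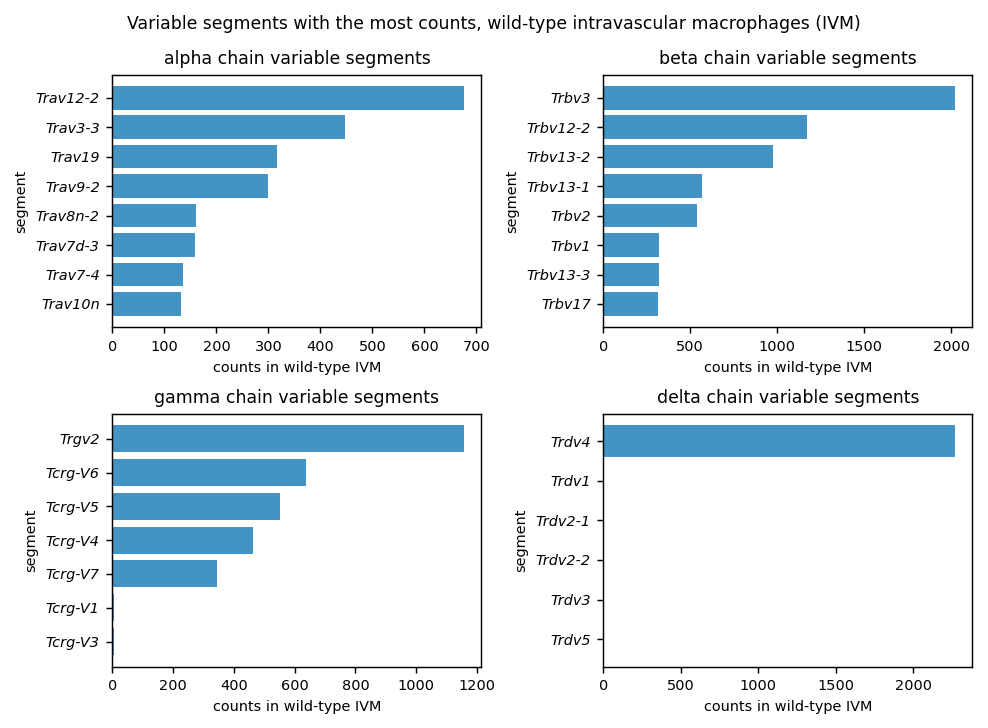
Counts (horizontal axis) of the variable segments with the most counts at each receptor locus (vertical axis) in wild-type IVM. Counts are spread over several segments at the alpha, beta and gamma loci, led by Trav12-2, Trbv3 and Trgv2. Among segments with a Trdv symbol they lie on Trdv4 alone.

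The NKT receptor joins Trav11 with the joining segment Traj18. Traj18 (chr14:54200777-54200842, plus strand) had 837 counts in wild-type IVM, 43.6% of the alpha joining segment counts (41.3 to 45.8), and 0 counts in the other 5 libraries. Its sequence is shown because the NKT receptor uses this segment, and whether these counts came from such a receptor was not tested. The letters are those of the annotated transcript (GENCODE M21), all in lower case as no base is singled out.
Traj18: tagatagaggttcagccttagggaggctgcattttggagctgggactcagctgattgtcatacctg
The variable segments that belong with it had far fewer counts, 6 on Trav11 and 2 on Trav11d. The next joining segments by count were its neighbours on chromosome 14, Traj19 with 393 counts, Traj20 with 199 and Traj17 with 165. Trav1 and Traj33, which form the receptor of mucosal-associated invariant T cells, had 0 counts in wild-type IVM.

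Lineages were also read as lists, which were chosen with earlier results of these data known, overlap with each other and with the 41 genes, and were not tested. Of their genes, 4 of 6 in the CD8 T cell list, 5 of 14 in the NK cell list, 3 of 15 in the gamma-delta T cell list and 1 of 6 in the NKT cell list are among the 41, and Eomes stands in both the CD8 and the NK list. Calls are set against the 13.1% of all genes tested that were lower in mutant IVM. In mutant IVM 1 CD8, 1 CD4, 1 gamma-delta and 0 NK list genes reached 10 CPM. Most genes thus reached the minimum through wild-type IVM alone, so these counts lean downward by selection. The CD8 T cell list summed to 14.1 CPM in mutant, against 703 CPM in wild-type IVM, with 6 of 6 genes lower in the mutant by the size rule and a median log2 ratio of -8.69. The CD4 T cell list summed to 26.5 and 254 CPM, with 3 lower of the 4 genes at the minimum, out of 7. Its defining regulatory T cell gene, Foxp3, had 0.750 and 0.0273 CPM, and the helper T cell ligand Cd40lg 0.0117 and 24.4 CPM. The gamma-delta T cell list summed to 60.7 and 1424 CPM, with 10 lower of the 11 at the minimum, out of 15, and a median of -7.61 over the list. It included the kinase Blk (0.0234 and 63.8 CPM) and the cytokine Il17a (0 counts and 45.4 CPM). Il17f and Ccr6 of that list had 0 counts in wild-type IVM. Single genes held most of the mutant IVM sums: Runx3 13.6 CPM (CD8 list), Zbtb7b 23.9 CPM (CD4) and Maf 57.9 CPM (gamma-delta). These genes were also read in mutant and wild-type monocytes, at 60.5 and 60.2, 55.8 and 57.8, and 315 and 110 CPM.

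The NK cell list summed to 2.04 CPM in mutant, against 531 CPM in wild-type IVM, with 11 lower of the 11 genes at the minimum, out of 14, and a median of -8.39 over the list. Receptors of the Ly49 family were among them, such as Klra9 (0 counts and 54.3 CPM) and Klra8 (0.0234 and 43.6 CPM), but Itga2, the DX5 antigen of NK cells, had 0 counts in both IVM libraries. The NKT cell list summed to 32.4 and 82.7 CPM; 3 of its 6 genes reached the minimum and 1 of them, Traj18, was lower, too few to set against the share of all genes. Per length, Nkg7 at 2042 TPM was the highest member in wild-type IVM, followed by Trbc2, Trbc1, Cxcr6 and Trac. Of the CD8 coreceptor, Cd8b1 had 229 TPM and Cd8a 93.5 TPM. Of genes used by gamma-delta T cells, Tcrg-C1 had 384 TPM, Cd163l1 183 TPM, Trdc 71.2 TPM and Il17a 54.5 TPM. The NK receptor Ncr1 had 40.1 TPM. Of the NKT list, Traj18, a segment of 66 bases, had 487 TPM and Zbtb16 1.45 TPM. Genes of CD8 T, CD4 T, gamma-delta T and NK cells were thus all read in the library, with Cd4 at 34.3 TPM. The place of a lineage in the order depends on the gene taken for it. Counting error is small at these depths, but a single library gives no spread between samples against which the order could be tested.

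**Figure D4:**
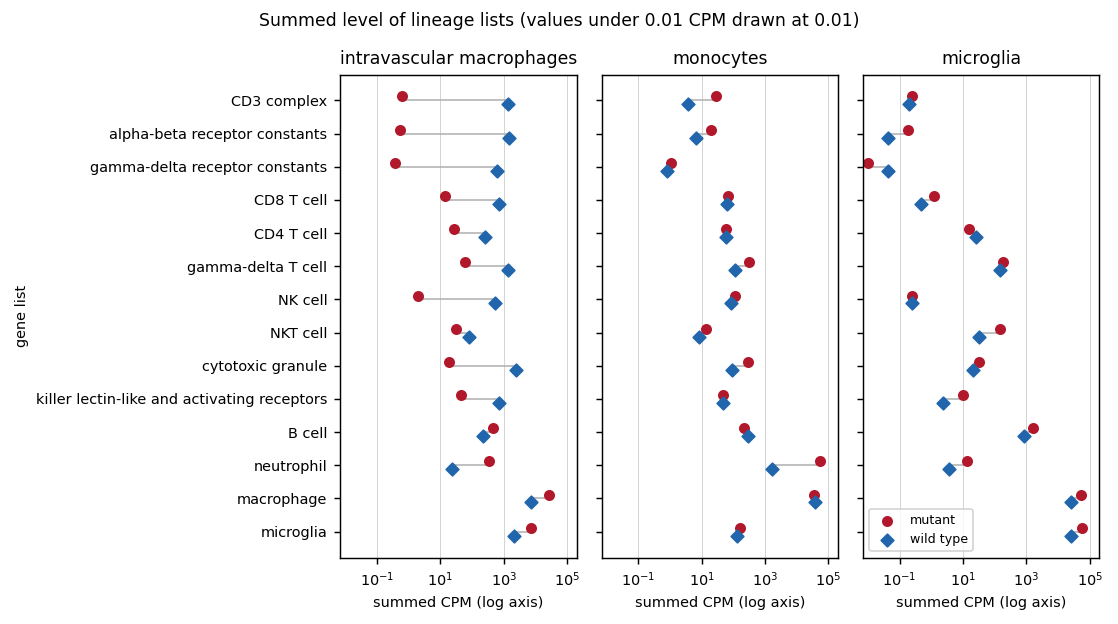
Summed CPM (horizontal, log axis) of gene lists (vertical axis) in mutant and wild-type libraries of each cell type. In IVM the mutant point lies left of the wild-type point for the T and NK cell lists drawn. Examples are 0.621 and 1385 CPM for the CD3 complex and 32.4 and 82.7 CPM for NKT cells. The mutant point lies right of it for macrophage, microglia, neutrophil and B cell lists. The NKT list is highest in mutant microglia, at 150 CPM, of which Slamf6 holds 149 CPM.

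Markers of other cells differed between the IVM libraries as well. Mast cell and basophil genes summed to 0 CPM in mutant, against 57.1 CPM in wild-type IVM, with Mcpt8 at 24.3 CPM, Prss34 at 28.2 CPM, and Cpa3 and Ms4a2 at 0 counts. Neutrophil genes summed to 352 and 22.8 CPM in mutant and wild-type IVM. Of 9 B cell genes 5 reached the minimum, of which 1 was lower and 3 were higher in mutant IVM, where 13.1% of all genes were lower and 16.5% higher. They summed to 466.5 and 228 CPM, and Pax5 had 0 counts in both. Genes used by all cells summed to 9221 and 15009 CPM, and macrophage genes to 27084 and 7511 CPM. The part of these differences in the values of the T and NK genes was not tested.

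In monocytes the direction was the other one. By the size rule 0 of the 9 members that reached 10 CPM were lower and 4 were higher in mutant monocytes, against 0.609% lower and 6.37% higher of 8377 genes. They were Cd3d, Cd3g, Trbc2 and Nkg7. Cd3d was 7.79-fold higher (5.73 to 10.8), with 14.5 and 1.86 CPM in mutant and wild-type monocytes, and Cd3g 13.2-fold (8.33 to 22.1), with 10.6 and 0.805 CPM. Trbc2 was 4.35-fold higher (3.30 to 5.82), with 10.9 and 2.499 CPM, and Nkg7 7.69-fold (7.07 to 8.38), with 191 and 24.8 CPM. Of the 9, 6 reached the minimum in the mutant library alone (Cd3d, Cd3g, Trbc2, Cd2, Gzmb and Klrd1), so a count over the 9 leans upward by selection. The median log2 ratio was 0.86 over all 41 genes and 0.05 over all genes tested. The count depends on the scaling: by library size alone, which moves the median of all genes to -0.58, and on deposited TPM, 1 of the 4 passed, Nkg7. Cd3d and Cd3g kept log2 ratios of 2.34 and 3.05 by library size and 2.03 and 2.56 on TPM but fell short of the minimum level, and Trbc2 stood at 1.51 and 1.24. Of all genes, library size alone then gave 3.09% higher and 2.35% lower.

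Not all members shared that direction. Of the 41 genes 32 had a positive and 8 a negative log2 ratio in monocytes. Gzma stood at 81.8 and 44.6 CPM in mutant and wild-type monocytes, a ratio of 1.84 (1.71 to 1.97), under the size rule. Prf1 had 2.41 and 6.18 CPM, Ncr1 2.27 and 4.19 CPM, Eomes 0.846 and 1.82 CPM and Tbx21 1.30 and 2.499 CPM, all lower in value in the mutant and all under 10 CPM. Klrk1, which reached 10 CPM, had 8.68 and 16.5 CPM, a ratio of 0.527 (0.453 to 0.611). Zbtb16 had 0.503 and 5.25 CPM, a ratio of 10.5 lower (6.42 to 17.9), on 19 and 124 counts. T cell receptor genes of low count, Cd8b1 with 97 and 6 counts and Trac with 77 and 10 counts, were higher in value in the mutant.

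Several proportions among members in monocytes were unlike those in wild-type IVM. Others, on few counts in wild-type monocytes, could not be told apart from them there. Per length, Cd3d was 3.05 times Cd3e in wild-type IVM (2.98 to 3.13). It was 68.6 times Cd3e in mutant monocytes (43.0 to 117), where Cd3e had 18 counts beside 549 of Cd3d, and 33.0 times in wild-type monocytes (10.6 to 166), on 44 counts of Cd3d and 3 of Cd3e. Cd3g was 1.92 times Cd3e in wild-type IVM and 27.8 times in mutant monocytes (17.4 to 47.4). Gzma was 0.626 times Gzmb per length in wild-type IVM (0.601 to 0.652), 11.5 times in mutant monocytes (10.4 to 12.8) and 9.60 times in wild-type monocytes (8.18 to 11.3). Nkg7 was 14.4 times Gzma in wild-type IVM, 2.24 times in mutant monocytes and 0.535 times in wild-type monocytes, and Cd3g was 1.46 times Gzma in wild-type IVM but 0.0348 and 0.00485 times in mutant and wild-type monocytes. So in both monocyte libraries Gzma exceeded Gzmb and Cd3g by far, and in wild-type IVM it did not exceed Gzmb or Cd3g. For these pairs the intervals in monocytes exclude the value of wild-type IVM. In wild-type monocytes they include it for Trac over Trdc, at 10.3 (2.98 to 45.1) against 8.90, on 10 and 4 counts. They also include it for Cd8a over Cd8b1, at 0.340 (0.0820 to 1.34) against 0.409, on 5 and 6 counts. In mutant monocytes the intervals of both pairs exclude it, at 31.8 (16.4 to 69.0) and 0.126 (0.0808 to 0.192). All cover counting error alone.

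Cd3d and Cd3g, the CD3 genes past the size rule in mutant monocytes, lie head to head on chromosome 9, with starts 1355 bases apart, while Cd3e lies beyond Cd3d. Under 10 CPM, Cd3e was also higher in value, 3.75-fold (1.09 to 19.9), as was Cd247, 1.85-fold (1.16 to 3.04). The 250 bases before each start are printed from RefSeq (GRCm38.p6) because both neighbours passed the rule; capitals mark matches to motifs on either strand. The motifs searched were TGTGGT for RUNX factors, AGGAAG for ETS factors, CTTTGA for TCF/LEF factors, AGATAA for GATA factors, AGGTGT for T-box factors and CACCTG for E-box factors. The T-box and E-box letters can overlap.
Cd3g, chr9:44980432-44980681, minus strand: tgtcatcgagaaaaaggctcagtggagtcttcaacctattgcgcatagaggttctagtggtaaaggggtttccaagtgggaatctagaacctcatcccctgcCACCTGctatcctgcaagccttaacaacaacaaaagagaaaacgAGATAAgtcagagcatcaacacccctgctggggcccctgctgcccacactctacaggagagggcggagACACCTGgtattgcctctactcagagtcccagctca
Cd3d, chr9:44981536-44981785, plus strand: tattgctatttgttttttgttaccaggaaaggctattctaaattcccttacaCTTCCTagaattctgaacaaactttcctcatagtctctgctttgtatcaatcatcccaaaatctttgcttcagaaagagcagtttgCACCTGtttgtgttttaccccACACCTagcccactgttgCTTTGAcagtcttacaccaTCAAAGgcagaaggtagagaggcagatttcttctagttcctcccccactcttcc
Cd3g had 4 matches, GATA once, T-box once and E-box at 2 places, of which the T-box and 1 E-box overlap. Cd3d had 5, ETS once, TCF/LEF at 2 places, T-box once and E-box once. These letters are common: of 32851 RefSeq windows of this length, 14.0% hold the RUNX, 29.5% the ETS, 13.8% the TCF/LEF, 9.99% the GATA, 11.8% the T-box and 17.2% the E-box motif. The 26 members matched have 34 windows, of which 11, 15, 4, 2, 8 and 10 hold them in that order. A match describes the sequence and is not evidence of binding.

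Genes of neutrophils, erythroid cells and platelets were higher in mutant monocytes, where 6.37% of all genes were higher by the size rule. Neutrophil genes summed to 54554 CPM in mutant, against 1702 CPM in wild-type monocytes, with 6 of 8 higher by the size rule. Erythroid genes summed to 10478 and 217 CPM, with 6 of 6 higher, and platelet genes to 1726 and 20.8 CPM, with 4 of 5 higher. The part of these cells' RNA in the levels of the T and NK genes was not tested.

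In microglia the genes were near 0 in both genotypes. By the size rule 0 members were lower and 0 higher in mutant microglia, against 4.64% lower and 2.83% higher of 8798 genes, and only Il7r reached 10 CPM, at 27.6 and 26.8 CPM in mutant and wild-type microglia, a ratio of 1.03 (0.946 to 1.13). Below that level, Klrk1 had 2.46 and 0.175 CPM, 14.0 times higher in value (6.80 to 33.7), on 80 and 8 counts. By library size alone 16.0% of all genes were lower and 0.968% higher in mutant microglia. Icos had 3.47 and 2.41 CPM, Klrd1 3.16 and 1.77 CPM, Cxcr6 1.01 and 0.372 CPM, and Sox13 0.307 and 1.33 CPM. The median log2 ratio was 0.25 over the 41 genes and 0.12 over all genes tested.

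Differences between cell types, with the genotypes as the 2 libraries of each, were tested by edgeR's quasi-likelihood test with Benjamini-Hochberg adjustment over 17023 genes. Of the 39 members that passed the filter on low counts, 3 were higher in IVM than in microglia, where 1.25% of all genes were higher and 0.0411% lower. These were Ikzf3 (24.2 and 159 CPM in mutant and wild-type IVM, adjusted p = 0.00148 by edgeR, range over the alternatives 1.65e-23 to 0.00829), Cd7 (0.328 and 207 CPM, adjusted p = 0.0344, 1.38e-25 to 0.0931) and Cd2 (1.30 and 260.2 CPM, adjusted p = 0.0383, 1.76e-26 to 0.0708). Both IVM libraries were above both microglia libraries for these 3 genes, each of which had 0 to 2 counts in a microglia library, too few for a fitted fold to be read. Between IVM and monocytes edgeR called 0 of the 39, with 7 at an unadjusted p under 0.05, while DESeq2 called 15; of all genes edgeR called 0.27% higher and 0.241% lower in IVM. For 30 of the 41 genes wild-type IVM lay above both monocyte libraries and mutant IVM below both. The share of all genes in this order was not counted, so the number describes the members only.

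Between microglia and monocytes edgeR called 5 of the 39 members, all lower in microglia, where 1.76% of all genes were higher and 3.23% lower. Gzma had 0 counts in both microglia libraries, against 81.8 and 44.6 CPM in mutant and wild-type monocytes (adjusted p = 0.00602 by edgeR, range over the alternatives 1.63e-25 to 0.0394). The other 4 had 0 to 2 counts in a microglia library. Ikzf3 had 2.83 and 2.84 CPM in mutant and wild-type monocytes (adjusted p = 0.00650 by edgeR, 3.27e-10 to 0.0722) and Cd7 9.92 and 8.98 CPM (adjusted p = 0.0135, 4.37e-16 to 0.0777). Cd2 had 19.0 and 7.29 CPM (adjusted p = 0.0218 by edgeR, 1.92e-15 to 0.451) and Gzmb 11.5 and 7.50 CPM (adjusted p = 0.0479, 4.00e-15 to 0.423). The numbers of calls rest on single libraries. Without mutant IVM, edgeR called 39 members between IVM and monocytes, 41 between IVM and microglia and 37 between microglia and monocytes, in fits that called 27.2%, 30.7% and 27.5% of all genes. Without wild-type IVM it called 13, of which 12 were lower in IVM, 5 and 25, with 11.2%, 3.78% and 26.6% of all genes. Leaving out mutant microglia, mutant monocytes, wild-type microglia or wild-type monocytes gave 2, 12, 2 and 0 between IVM and monocytes, 26, 16, 4 and 16 between IVM and microglia, and 22, 3, 11 and 22 between microglia and monocytes, in that order, with 0.305% to 4.06% of all genes called. Each such fit has 1 residual degree of freedom and assumes that the lone library of a cell type varies like the others.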

How the data were processed

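Per the file headers, the deposited values are raw read counts for each gene and, in a second file, TPM (counts per gene length, scaled by the authors to a common sum). The submitters' processing notes name bcl2fastq 2.20, Trimmomatic 0.37, STAR 2.5.2b, Subread 1.5.2 and build mm10, without roles; gene annotation and strand setting were not given in the sources used here. Lines with no gene name (176, 0.00507% to 0.0166% of a library's counts) or with a date for a symbol (26) were dropped, and 94 repeated symbols were summed. Deposited TPM served for levels between genes and as an alternative, since 1 gene, Gm23935 (picked after seeing its values), held 1.13% to 46.6% of a library's TPM.

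Counts were scaled with TMM in edgeR 4.0.16 (R 4.3.3); log2 ratios used a prior count of 2. Folds carry exact conditional binomial 95% intervals and shares exact binomial ones; PCR reads without molecular identifiers are not independent molecules. With 0 counts a fold is a bound against 3 counts per library. Cell types were compared in edgeR with genotype as a term (2 residual degrees of freedom, threshold 0.05). No label ties libraries to separate animals, and p-values measure the spread between these libraries only, which may be technical. Alternatives were DESeq2 1.42.0, other scalings, filters and leaving out each library. All members are named; other genes come from marker and pathway lists, and the 3 highest variable segments per locus (others were chosen after their values were seen). The members and lists were chosen with earlier results of these data known.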

Additional observations from a re-analysis of the deposited data

Results flagged for a closer look

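For 4 genes the difference between mutant and wild type went opposite ways in IVM and in monocytes, past the 4-fold mark in both. The log2 ratio in IVM minus that in monocytes was -14.38 for Cd3d, -14.66 for Cd3g, -12.70 for Trbc2 and -14.31 for Nkg7. With 1 library per group this difference was not tested.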

How the results depend on the processing

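No direction was reversed for any member past the size rule under the alternatives run. The 40 members lower in mutant IVM were also 40 with DESeq2 size factors, library size only, either lower minimum, prior count 0.5 and a 2-fold mark, 35 on deposited TPM and 38 on TPM without Gm23935. An absolute log2 ratio of 1 added 1 higher member, Zbtb16. In mutant monocytes, the 4 higher members were 1 by library size only, on TPM and on TPM without Gm23935, and 8 at a minimum of 1 CPM or with no minimum, where 1 was lower (Zbtb16); of all genes 9.17% were higher and 3.41% lower at 1 CPM (30 members tested), and 4.88% and 2.70% with no minimum (41 tested). In mutant microglia, where 0 passed, 1 was higher at a minimum of 1 CPM, and with no minimum 3 were higher and 1 lower. Of all genes there, 4.87% were higher at 1 CPM, and 2.79% were higher and 3.07% lower with no minimum. For all genes in monocytes, library size only gave 242 higher and 184 lower in place of 534 and 51, and TPM 178 and 237. In IVM, TPM gave 2688 higher and 537 lower of all genes in place of 1579 and 1256, with a median of 1.17. TPM without Gm23935 moved the median of all genes to 0.19 in IVM, -0.79 in monocytes and -0.73 in microglia, and library size only moved it to -0.62 in microglia. The summed level of the members in wild-type IVM was 13381 CPM by library size only, 9214 TPM, and 17265 TPM without Gm23935. In the cell type tests, members called between IVM and monocytes, IVM and microglia, and microglia and monocytes were 15, 35 and 22 with DESeq2 and 9, 31 and 28 with no filter beyond 1 count, where more genes are tested. With no such filter, 1.57%, 1.89% and 5.29% of all 27357 genes were called. Without the genotype term 1 member was called between IVM and microglia and 2 between microglia and monocytes, with 0.676% and 3.16% of all genes. DESeq2 size factors in edgeR gave 1 between IVM and microglia, with 0.981% of all genes. Of all genes, DESeq2 called 988, 889 and 2616 in place of 87, 220 and 849. Leaving out 1 library gave 0 to 39, 4 to 41 and 3 to 37. The cause of these shifts was not tested. No paired analysis was possible because the labels give no replicate numbers and each group has 1 library. Genes of few counts are limited by depth: 3 counts are 0.0351 CPM in mutant IVM and 0.0819 CPM in wild-type IVM.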

Other observations

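Further gene groups of wild-type IVM that touch on T and NK cells are given as values. In mutant and wild-type IVM, 2 and 6 tissue-resident, 3 and 7 innate lymphoid and 2 and 12 killer cell receptor genes reached 10 CPM. The counts of lower genes in these lists thus lean downward by selection. Genes of tissue-resident lymphocytes had a summed level of 457 CPM in mutant, against 1749.8 CPM in wild-type IVM, with 5 of 6 lower by the size rule, where 13.1% of all genes were lower and 16.5% higher. They included the activation antigen Cd69 (17.4 and 217 CPM), the integrin Itgae (5.82 and 45.1 CPM) and the factor Zfp683 (0 counts and 17.0 CPM). Of 7 genes of naive and recirculating T cells, 4 were lower and 1 higher: the egress receptor S1pr1 had 20.1 CPM in mutant, against 0.983 CPM in wild-type IVM, and the homing receptor Ccr7 0.434 and 18.6 CPM. Innate lymphoid cell genes summed to 51.2 and 612 CPM, with 6 lower of the 7 at the minimum, and the cytokines Il5 and Il13 of that list had 0 counts in all 6 libraries. Inhibitory and activating receptors of killer cells, a list of 14, had 10 lower of the 12 at the minimum, among them Klrg1 (0.0117 and 82.9 CPM), Cd96 (0.246 and 119 CPM) and Cd160 (0.0820 and 45.3 CPM).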
